A study of Mus musculus with 20 samples.

Results

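Editing levels were compared between 2 lines of mouse embryonic fibroblasts, both treated with interferon: ADAR2-null and ADAR1-null. The first has lost ADAR2 and keeps ADAR1 as its editing enzyme, and the second has lost ADAR1 and keeps ADAR2, so the comparison sets editing by ADAR1 after interferon against editing by ADAR2. The members are the sites read at least 50 times in each of the 4 libraries, 2 from each line. They number 8224 of the 48425 sites listed in the series and lie in 299 genes and 32 intergenic loci. The editing level of a site is its edited reads as a percentage of its reads, and differences are in percentage points, ADAR2-null minus ADAR1-null.

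ADAR enzymes bind double-stranded RNA and deaminate adenosine to inosine, which is read as guanosine by ribosomes and by sequencing. ADAR1 is made as a constitutive, mainly nuclear p110 form and as an interferon-inducible p150 form that shuttles to the cytoplasm. Its best-known role is to mark the cell's own duplex RNA, much of it formed by inverted repeats in 3′ untranslated regions (UTRs), so that the cytoplasmic sensor MDA5 does not respond to it. ADAR2, the product of Adarb1, is nuclear and is best known for recoding codons in neuronal transcripts such as those of glutamate receptor subunits, where short hairpins between exon and intron form the substrate.

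The series holds 20 libraries from 5 fibroblast lines, labelled ADAR1_WT, ADAR1_NULL, P150_KO, ADAR2_NULL and STAT2_NULL, each with and without interferon, 2 libraries per line and treatment. Loci were amplified by RT-PCR from total RNA, and the products of a sample were pooled and given a barcode in 15 cycles of PCR. Wild type stands below for ADAR1_WT. The labels give neither the type, dose and duration of interferon nor the alleles, and each genotype is a single line, so genotype and other differences between the lines cannot be told apart. No label tells whether paired libraries of a group are from separate cultures; the p-values therefore rest on a spread that could be purely technical. In RNA from many cells, editing in fewer cells and less editing per cell cannot be told apart.

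The 4 libraries held 4901362 to 5415404 reads summed over sites, and 8568 to 8709 sites in each had 50 reads. The median member had 313 reads in its shallowest library. The assay gives editing and no expression, so neither the loss of ADAR1 or ADAR2 nor the fibroblast label could be checked in the files: 8 fibroblast markers had 2 listed sites and 6 macrophage or endothelial markers had 3, and none of these was a member. No line lacking both enzymes was analysed here, so the level that reading errors alone would give was not measured. Of the members, 1523 had no edited read in any of the 4 libraries and 6701 had at least 1.

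The ADAR2-null cells were edited far more widely than the ADAR1-null cells. Over the 8224 members the mean level was 1.76% and 1.93% in the ADAR2-null libraries, a mean of 1.85% ± 0.122 (SD, n = 2). It was 0.280% and 0.243% in the ADAR1-null libraries, a mean of 0.261% ± 0.0265. The groups did not overlap, and the difference was 1.58 points (SE 0.0884), a ratio of 7.06. An exact permutation test over the 6 ways of splitting 4 libraries gave a two-sided p = 0.333, the smallest that 2 against 2 allows.

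Counting sites by level shows the same lean. A mean level of at least 1% was reached by 1370 members in 223 loci in ADAR2-null cells and by 231 members in 134 loci in ADAR1-null cells, and 100 members reached it in both. A level of at least 10% was reached by 373 members in 99 loci in ADAR2-null cells. In ADAR1-null cells 5 members reached 10%: 3 sites of Rpa1, 1 of Cog3 and 1 of the noncoding transcript uc012aji.1, and these 5 were also above 10% in ADAR2-null cells. At least 50% was reached by 42 members in 24 loci in ADAR2-null cells and by 0 members in ADAR1-null cells. Editing of at least 10% with a level under 1% in the other line was seen at 332 members in the ADAR2-null direction and at 0 in the reverse.

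The excess was greatest in 3′ UTRs. The 5235 members in 3′ UTRs had a mean level of 2.53% ± 0.172 in ADAR2-null and 0.277% ± 0.033 in ADAR1-null cells. Intergenic members (941) stood at 0.707% against 0.144%, intronic members (1196) at 0.510% against 0.251%, and members in noncoding RNAs (358) at 0.894% against 0.298%. Sites that change an amino acid (230) stood at 0.982% against 0.432%, a difference of 0.55 points that was 0.306 points without 1 site of Ifi202b left out after seeing the data, silent coding sites (101) at 0.444% against 0.253%, and sites in 5′ UTRs (163) at 0.357% against 0.208%. In these 7 classes both ADAR2-null libraries lay above both ADAR1-null libraries.

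Sites were then tested one at a time with edgeR's quasi-likelihood test on edited and unedited reads, fitted to all 20 libraries, with Benjamini-Hochberg adjustment and a call at an adjusted p under 0.05. Sites needed a mean over the 4 libraries of 1% or more, which 1078 members in 198 loci met (13.1%); 5623 others had edited reads but a lower mean. Of the 1078, 947 passed only because of the ADAR2-null libraries, so their direction was largely fixed by the filter. In all, 741 sites in 137 loci were called higher in ADAR2-null cells (68.7% of those tested) and 1 was called higher in ADAR1-null cells (0.0928%). The median difference was 5.54 points over the tested sites and 9.42 points over those called higher, where it ran from 1.27 to 90.4 points. The library values did not overlap between the lines at 913 sites with ADAR2-null higher (84.7%) and at 15 with ADAR1-null higher (1.39%).

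With no minimum level, 674 of 6701 sites (10.1%) were called higher in ADAR2-null cells and 3 higher in ADAR1-null cells. The 1% minimum was also taken from the interferon-treated wild-type libraries instead, a choice made after seeing the data. Sites still needed 50 reads in each wild-type and null library, and at least 1 edited read among the null libraries. Of 1358 such sites, 641 (47.2%) were called higher in ADAR2-null and 1 in ADAR1-null cells. Among the 131 tested sites at 1% or more in ADAR1-null cells, 34 were higher in ADAR2-null cells, 1 was lower and 96 were not called. At the coverage threshold, 189 sites with 50 to 59 reads in the shallowest library had mean levels of 1.41% and 0.281%, and 232 sites just outside it, at 40 to 49 reads, had 1.46% and 0.227%.

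**Figure D1:**
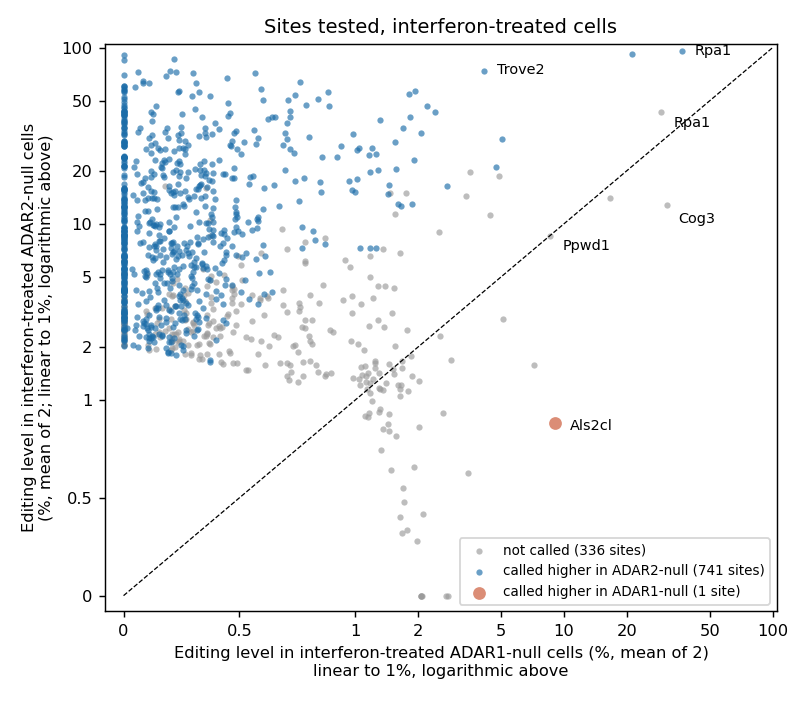
Mean editing level of each of the 1078 tested sites in interferon-treated ADAR1-null (x) and ADAR2-null cells (y), in percent, mean of 2 libraries, linear to 1% and logarithmic above; the dashed line marks equal levels. The 741 sites called higher in ADAR2-null cells crowd the left edge, where ADAR1-null levels are near 0, and Als2cl is the 1 site called on the other side; Cog3 and the Rpa1 site beside the line were not called.

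By region, 653 of 915 tested 3′ UTR sites were called higher in ADAR2-null cells and 1 was called lower. The corresponding counts were 38 of 63 in introns, 22 of 50 in intergenic loci, 17 of 21 in noncoding RNAs, 9 of 18 at amino acid changes, 2 of 6 at silent sites and 0 of 5 in 5′ UTRs, with no site called lower in these 6 classes. These shares are read against 68.7% over all tested sites, which the 3′ UTR sites dominate. The 5 tested 5′ UTR sites had adjusted p-values of 0.054 or more.

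The 18 loci with the greatest differences were 17 genes edited in their 3′ UTRs and 1 intergenic locus. All positions are in mm9, as listed in the files. In these 18, ADAR2-null levels were 51.9% or more in each library and ADAR1-null levels 5.88% or less, and their adjusted p-values (edgeR quasi-likelihood, Benjamini-Hochberg) ran from 9.79e-09 for Gnl3l to 0.00105 for the intergenic locus. The shallowest of the values rested on 107 reads. Each of the 18 calls was kept under the alternatives that were run.

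Rpa1, Mad2l1, Mlh3 and Mdc1 are on the DNA repair and checkpoint list. Rpa1, the large subunit of the single-strand DNA-binding complex RPA, had 92.1% and 88.6% editing at position 75114095 of chromosome 11 in ADAR2-null cells and no edited read in ADAR1-null cells, which allows a level of up to 1.25% there. Its difference of 90.4 points (SE 1.77) was the largest among the tested sites. Mad2l1, a spindle checkpoint protein, had 68.6% and 72.0% against 0 edited reads at 66490075 of chromosome 6, which allows up to 0.154%. Mlh3, a mismatch repair protein, had 66.0% and 60.4% against 0.170% and 0 at 86576054 of chromosome 12. Mdc1, a mediator of the DNA damage checkpoint, had 60.1% and 59.8% against 0 and 0.100% at 35994679 of chromosome 17. In each of these 4 genes the lines were separated by more than 59 points while the ADAR2-null libraries differed from each other by a few.

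Others of the 18, grouped here for reading only, act in the nucleus or bind RNA. The nucleolar GTPase Gnl3l had 73.0% and 72.1% against 0.0838% and 0.0439% at 147420066 of chromosome X, with at least 1802 reads behind each value. Nucleolin (Ncl), a ribosome assembly factor, had 64.7% and 51.9% against 0 edited reads at 88244503 of chromosome 1, and the nuclear pore component Nup155 had 61.6% and 63.9% against 0 and 0.216% at 8109489 of chromosome 15. Fubp3, which binds single-stranded nucleic acids, had 66.7% and 52.6% against 0 edited reads at 31471414 of chromosome 2. Trove2, the Ro autoantigen that binds small noncoding RNAs, was the member of the 18 with most editing in ADAR1-null cells: 70.9% and 77.5% against 5.88% and 2.44% at 145602508 of chromosome 1. The ADAR2-null libraries were less alike at Ncl and Fubp3, where they lay more than 12 points apart.

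The remaining genes have varied roles. Mmgt1, a membrane protein of the endoplasmic reticulum, had 86.1% and 86.2% against 0.269% and 0.166% at 53840820 of chromosome X. Rhoa, the small GTPase that controls actin stress fibres, had 73.7% and 73.4% against 0.272% and 0.126% at 108239461 of chromosome 9. 2900026A02Rik had 64.9% and 79.0% against 0.421% and 0.177% at 113516516 of chromosome 5. At these 3 sites most reads were edited in ADAR2-null cells and almost none in ADAR1-null cells. Ovca2 had 65.2% and 78.7% against 0.655% and 0.476% at 74989846 of chromosome 11, and Bri3bp had 67.2% and 70.3% against 0 and 0.371% at 125936975 of chromosome 5. The mitochondrial carbonic anhydrase Car5b had 61.0% and 66.4% against 1.05% and 0.474%, and Pfas, an enzyme of purine synthesis, 58.9% and 54.9% against 0 edited reads. Cds2, which makes CDP-diacylglycerol for phospholipid synthesis, had 55.1% and 65.9% against 0 edited reads. At the intergenic locus, position 55773272 of chromosome 12, the levels were 62.4% and 54.7% against 0 and 1.18%. In each case the groups of libraries did not overlap, which the rule that picked these sites required.

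The 8 genes with most tested sites show how far the levels of a gene's sites differed between the lines. Their sites lie in 3′ UTRs, and the sites of a gene share a transcript and, where close, can share reads, so they are not independent. Mad2l1 had 36 of 37 tested sites called higher in ADAR2-null cells, with a median level of 13% against 0.197%. In Rpa1, 24 of 41 were higher, with a median of 9.58% against 0, and 23 of the 41 had no edited read in ADAR1-null cells. Bri3bp had 28 of 39, Dnajc1, which encodes a DnaJ chaperone of the endoplasmic reticulum, 25 of 33, and Ncl 21 of 34. Slc35e2, a member of a solute carrier family, had 23 of 26, 2900026A02Rik 20 of 24 and Gla, the lysosomal alpha-galactosidase, 16 of 24. No site of these 8 genes was called higher in ADAR1-null cells. The shares called higher in ADAR2-null cells are read against 68.7% over all tested sites, and those of Rpa1, Ncl and Gla lay below it. Among smaller sets, Gnl3l (18 tested) and the cell cycle and transcription kinase Cdk7 (16) had their tested sites called higher without exception.

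Within a gene the ADAR2-null level varied widely from site to site. In Rpa1 it ran from 2.35% to 95.2%, in Mad2l1 from 1.58% to 70.3% and in Slc35e2 from 2.02% to 43.3%. ADAR1-null levels in Slc35e2 did not pass 0.602%, nor those in Mad2l1 1.87%. In Rpa1, by contrast, they reached 36.8%.

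**Figure D2:**
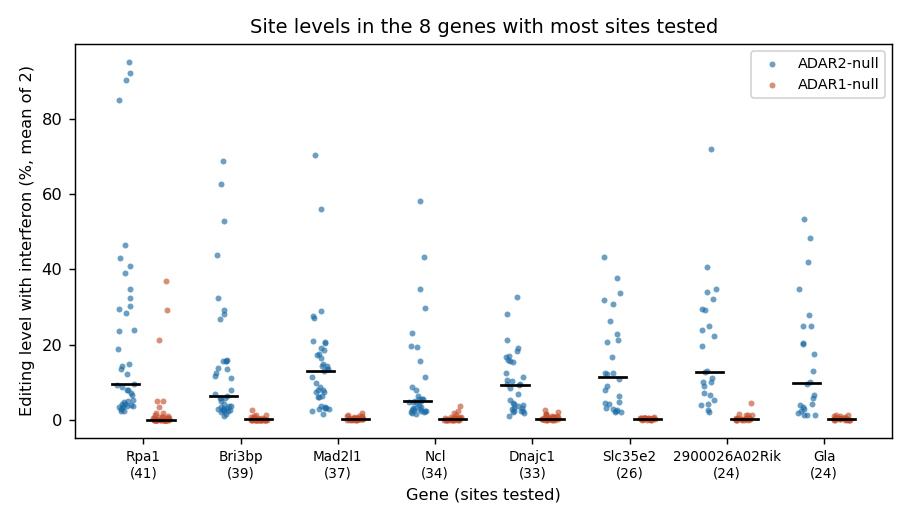
Editing level with interferon (y, percent, mean of 2 libraries) of each tested site in the 8 genes with most tested sites, in ADAR2-null and ADAR1-null cells; black bars are medians and the number of sites is under each gene. ADAR2-null levels spread up to 95.2% while ADAR1-null levels stay close to 0, apart from 3 sites of Rpa1 above 10%.

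A few sites were edited in both lines. The most edited was Rpa1 at 75114517, with 94.1% and 96.3% in ADAR2-null and 37.1% and 36.4% in ADAR1-null cells, a difference of 58.4 points (SE 1.13, adjusted p = 0.000345, edgeR). Wild-type cells with interferon had 99.5% there. A pair of adjacent Rpa1 adenosines, singled out after their values were seen, differed in their balance: 75114080 had 93.7% and 90.6% against 23.0% and 19.7% and was called (adjusted p = 0.000328, edgeR), while 75114079 had 41.7% and 44.3% against 31.9% and 26.8% and was not (adjusted p = 0.441). The wild-type mean was 89.1% at 75114079, on as few as 34 reads. The lines did not overlap at either position, and both rested on at least 113 reads per library of the 2 lines.

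The noncoding transcript uc012aji.1 on chromosome 17 held a similar contrast between neighbours. At 6122636 the ADAR2-null libraries had 14.3% and 13.6% and the ADAR1-null libraries 16.9% and 16.5%, a difference of -2.72 points (SE 0.417) that was not called (adjusted p = 0.675, edgeR). The other 13 of its 14 tested sites were called higher in ADAR2-null cells. At 6122638, for example, levels were 14.8% and 21.4% against 0.523% and 0.410%, and at 6122631 they were 19.8% and 22.1% against 5.26% and 4.21%. Of the 14 sites, then, 6122636 alone had more editing in both ADAR1-null libraries.

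The 8 genes with the highest level in the less edited of the 2 lines were Rpa1, uc012aji.1, Cog3, Trove2, Ppwd1, Iqgap1, Ncl and 2900026A02Rik. Ppwd1, a spliceosome-associated peptidyl-prolyl isomerase, had 9.22% and 7.94% against 9.30% and 7.83% at a serine-to-glycine change (105018767 of chromosome 13), a difference of 0.0156 points (SE 0.973, adjusted p = 0.998, edgeR). In the scaffold protein gene Iqgap1, 87857166 of chromosome 7 had 2.45% and 3.32% against 5.72% and 4.47% (adjusted p = 0.141), whereas 13 of its 14 tested sites were called higher in ADAR2-null cells. A few bases along, at 87857169, Iqgap1 levels were 3.08% and 4.46% against 0.222% and 0.280%. Ncl at 88242491 had 17.2% and 22.0% against 3.37% and 3.74% (adjusted p = 0.0732), and 2900026A02Rik at 113516831 had 0 and 22.3% against 0.536% and 8.27%, with libraries of each line far apart.

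Tested sites with more editing in the ADAR1-null line were few, but 947 of the 1078 passed the filter only because of the ADAR2-null libraries. Of 231 members at 1% or more in ADAR1-null cells, 100 reached 1% in both lines. Among the 1078 tested, 53 had the higher mean in ADAR1-null cells, and 1 of these, the site called, had an unadjusted p under 0.05 (edgeR). That site was in the 3′ UTR of Als2cl, at 110802807 of chromosome 9. Levels were 8.86% and 9.30% in ADAR1-null and 1.77% and 0 in ADAR2-null cells, a difference of -8.20 points (SE 0.91, adjusted p = 0.00853, edgeR) on at least 379 reads. Wild-type cells with interferon had 7.16%, p150-knockout cells 0.653%, untreated ADAR1-null cells 10.9% and untreated ADAR2-null cells 0.499%. The call was lost without the second ADAR2-null library (adjusted p = 0.0899).

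Cog3, a subunit of a Golgi tethering complex with a known ADAR2 recoding site, had the largest difference toward ADAR1-null cells. At the isoleucine-to-valine change, 76119526 of chromosome 14, ADAR1-null libraries had 29.4% and 33.2% and ADAR2-null libraries 13.5% and 12%, with no overlap. The difference of -18.6 points (SE 2.05) was not called (adjusted p = 0.0874, edgeR). It was called by limma (0.0478), with a minimum level of 5% (0.0238) and in a fit of the 4 libraries alone (0.0451), and its adjusted p ran from 0.0238 to 0.505 over the alternatives. Wild-type and p150-knockout cells with interferon had 85.6% and 63.8%, above both null lines. The next base, 76119527, a silent change, had 0.338% and 0.331% against 1.94% and 1.59% (adjusted p = 0.0863), and the lysine-to-arginine change at 76119510 went the other way, 1.53% and 3.46% against 0.485% and 0.145% (adjusted p = 0.0282). The call at 76119510 was lost without the second ADAR1-null library and with no minimum level (adjusted p up to 0.171).

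The list of genes with textbook ADAR2 sites was thinly covered. Of its 17 genes, 10 held 120 members, of which 13 sites in 5 genes were tested; 9 were called higher in ADAR2-null cells and 0 lower, a share close to the 68.7% over all tested sites, with a median difference of 2.62 points against 5.54 over all tested sites. At an unadjusted p under 0.05 none of the 13 was lower, while limma called Cog3 lower. Besides the Cog3 site at 76119510, the 9 were 6 neighbouring sites in a single intron of Adarb1 and 2 sites of Gria3. Adarb1 is edited in its own intron by ADAR2, which creates a splice site. At 76786805 of chromosome 10 it had 6.56% and 8.08% in ADAR2-null against 2.40% and 0.109% in ADAR1-null cells (difference 6.07 points, SE 1.37, adjusted p = 0.00253, edgeR). This call was lost without the second ADAR1-null library and in a fit of the 4 libraries alone (adjusted p up to 0.0867). The other 5 Adarb1 sites had ADAR2-null means of 3.48% or lower, and wild-type cells had 17.7% at 76786805.

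Gria3 encodes a glutamate receptor subunit whose arginine-to-glycine site lies next to a splice junction. At 39007429 of chromosome X levels were 5.74% and 8.72% against 0 and 0.337% (adjusted p = 0.00283, edgeR), and at the intronic 39007465 they were 5.80% and 4.23% against 0.193% and 0 (adjusted p = 0.00411). Wild-type cells had 34.1% and 30.1% at the pair, above both null lines. The other tested members of the list were not called: Kcna1, a potassium channel, had 1.17% and 0.696% against 1.2% and 1.12% (adjusted p = 0.717), and Unc80, part of a sodium leak channel, 0.852% and 0.857% against 1.45% and 1.26% (adjusted p = 0.553).

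The Flna and Cyfip2 members were below the 1% minimum and untested. Flna, an actin cross-linker, had 0 edited reads in 3 of the libraries and 2.53% in the second ADAR1-null library at the intronic 71471989 of chromosome X, where wild-type cells had 29.5% and p150-knockout cells 41.6%. Cyfip2, a partner of the actin regulator WAVE, had 0 against 1.49% and 1.25% at 46084155 of chromosome 11 on as few as 67 reads, and at 46086145, where wild-type cells had 14.4%, none of the 4 libraries held an edited read. Grik2 and Tmem63b members also stayed at 1.21% or lower in each library. At these sites neither null line approached the wild-type level where that was high.

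The ADAR1-type list of 4 genes had 14 members in 2 genes. Blcap, a small apoptosis-related protein recoded at several codons, had 3 of its 3 tested sites higher in ADAR2-null cells. At the tyrosine-to-cysteine change, 157383885 of chromosome 2, levels were 19.1% and 17.7% against 0.106% and 0.241% on at least 3093 reads (difference 18.3 points, SE 0.68, adjusted p = 4.35e-08, edgeR). At 157383876 they were 7.36% and 5.79% against 0.106% and 0.362%, and at 157383846 they were 3.89% and 4.42% against 0.332% and 0.465%. Neil1, a DNA glycosylase, had 1.68% and 1.26% against 1.08% and 0 at a silent site and was not called (adjusted p = 0.467).

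**Figure D3:**
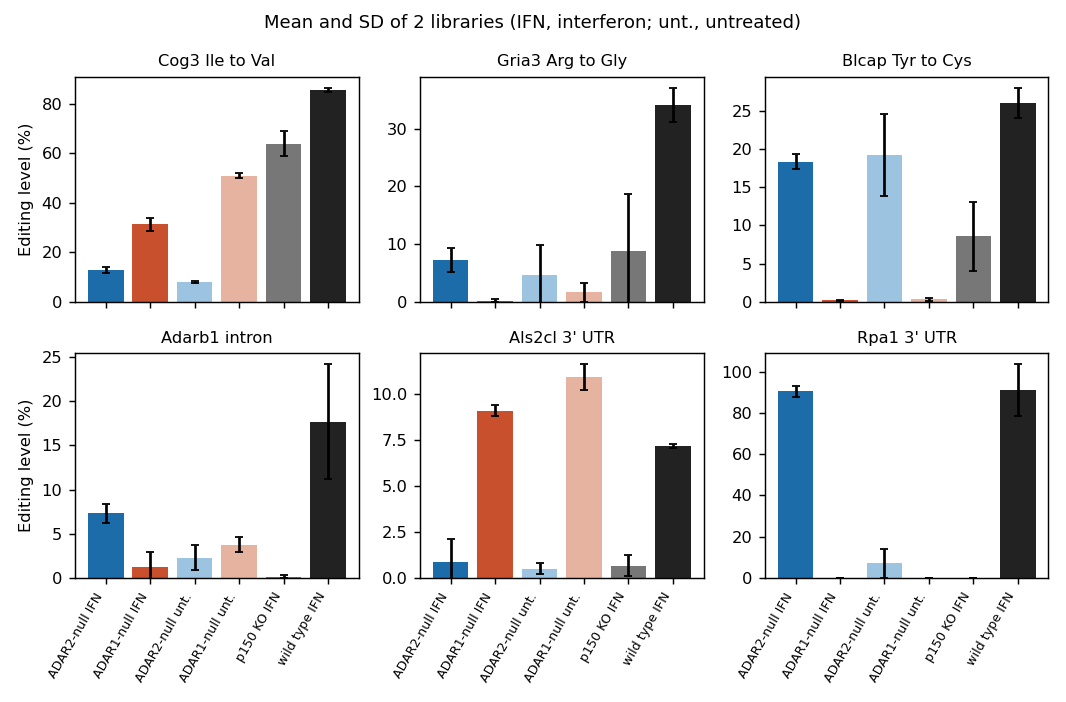
Mean editing level (y, percent, bars with SD of 2 libraries) in 6 groups at 6 sites: Cog3, Gria3 and Blcap recoding sites, the Adarb1 intron, and Als2cl and Rpa1 3′ UTR sites. The y axes differ between panels; with interferon, Cog3 and Als2cl are higher in ADAR1-null than in ADAR2-null cells and the others are lower, while untreated the Adarb1 site is also higher in ADAR1-null cells. The Rpa1 bars of wild-type, p150-knockout and untreated ADAR1-null cells rest on as few as 34, 24 and 14 reads.

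Of the 18 amino acid changes tested, 9 were called higher in ADAR2-null cells, and 9 were not called, of which 5 had the higher mean in ADAR1-null cells. The following were named after their values were seen, from among those called. Cyclin I (Ccni) had an arginine-to-glycine change at 93618610 of chromosome 5 with 17.6% and 20.6% against 0 and 0.265%, and uc008wxi.1 a threonine-to-alanine change at 31475853 of the same chromosome with 16.1% and 20.1% against 0.388% and 0.567%. Nicastrin (Ncstn), a subunit of gamma-secretase, had 3.95% and 5.33% against 0 edited reads (adjusted p = 0.0216, edgeR), a call lost with no minimum level and without the first or second ADAR1-null or the second ADAR2-null library (up to 0.104). Silent sites of uc008wxi.1 (4.09 points) and of the cartilage proteoglycan Acan (6.17 points) were also called, the latter not by limma nor without the second ADAR1-null library (adjusted p up to 0.108). The groups of libraries did not overlap at these 5 sites.

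The sites called on the remaining lists lay in the same direction. On the duplex list 60 of 78 tested sites were called higher in ADAR2-null cells, with Mad2l1 and Rpa1 as its 2 tested genes and a median of 11 points. The DNA repair and checkpoint list, which shares those genes, had 80 of 103 and a median of 9.73 points. The cytoskeletal list had 15 of 16 with a median of 2.55 points, 13 of them in Iqgap1, and the neuronal list 2 of 4, both in Gria3. No site of these lists was called lower, and a share is read against 68.7% over all tested sites.

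On the interferon and innate immunity list, 15 of 17 tested sites were higher in ADAR2-null cells, with a median of 8.72 points, and they came from 2 genes. Over all tested sites the share was 68.7% and the median 5.54 points. Slfn5, a member of the interferon-induced Schlafen family, had 14 of 15 sites called within a short stretch of its 3′ UTR. At 82776122 of chromosome 11 its levels were 33.8% and 37.4% against 0.216% and 0.278% (adjusted p = 0.000112, edgeR), and wild-type cells had 70.5%. At 82776157 they were 24.0% and 37.4% against 0.216% and 0, with 70.9% in wild type. Ifnar1, a chain of the type I interferon receptor, had 5.03% and 8.12% against 0 edited reads at the intronic 91490832 of chromosome 16 (adjusted p = 0.00932), where wild type had 0. The Ifnar1 call was lost without either ADAR1-null library (adjusted p up to 0.0561).

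The other groups place the levels of both lines. Of the 741 sites called higher, 537 in 91 loci had the coverage in the groups compared next. Median levels at these sites were 9.14% in ADAR2-null, 10.6% in wild-type, 1.10% in STAT2-null, 0.324% in p150-knockout and 0.205% in ADAR1-null cells, each with interferon. Untreated, the medians were 0.536% in ADAR2-null and 0.190% in ADAR1-null cells. Since the sites were chosen for a high level in the treated ADAR2-null libraries, these medians are a description. Compared with wild type, the ADAR2-null pair of libraries was lower at 181 of the 537 sites, higher at 112, and overlapping at 244. Gria3 at 39007429 was among the lower sites, and Rhoa at 108239461, with 67.0% in wild type, among the higher.

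The last comparison asked where the contrast between the lines was itself different with interferon than without. It used 607 sites in 123 loci read at least 50 times in the 8 libraries, with a mean level of at least 1% over them. Treated ADAR2-null cells were the only group at 1% or more at 329 of the 607, so the direction was largely fixed by the filter here too. The median difference between the lines was 8.62 points with interferon and 0.289 points without. By edgeR's test of the difference of the contrasts, 176 sites in 54 loci (29.0%) had a greater signed difference with interferon, and 0 (0.0%) had a smaller one. Greater means a shift toward ADAR2-null cells, so the gap itself can shrink, as at uc012aji.1 position 6122636, described below. The test compares log odds of editing (edited over unedited reads), so its p-values do not measure the differences in points or their SE. With no adjustment, 0 were smaller at p under 0.05, and limma found 0 smaller and 322 greater. With no minimum level, 87 of 5102 sites were called greater (1.71%) and 2 smaller (0.0392%). The count was 106 without the second treated ADAR1-null library, 94 with the second untreated ADAR1-null library left out and 108 with its ADAR2-null counterpart left out. Covered sites numbered 5652 in the first untreated ADAR1-null library and 8405 in the second, and the part of this in the result was not tested.

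Among the 6 genes with the greatest such difference, the gap at Mmgt1 was 85.9 points with interferon and 2.89 points without, a difference of 83.0 points (SE 0.146, adjusted p = 0.0224, edgeR). Its call was lost without the second treated or the second untreated ADAR1-null library and with no minimum level, with an adjusted p of up to 1.0. Rhoa moved from 0.289 to 73.3 points (adjusted p = 0.000444), Gnl3l from 1.39 to 72.5 points (0.00241) and Mlh3 from 0.0224 to 63.1 points (0.00536). 2900026A02Rik moved from 0.0168 to 71.6 points (0.00679), a call lost without the second untreated ADAR1-null library (0.0576). At these 5 sites the untreated ADAR2-null mean was 2.97% or lower, so both lines were near 0 before treatment.

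At other sites the untreated order was the reverse. ADAR1-null cells had the higher untreated mean, often by a small margin, at 153 of the 607 sites, and with interferon ADAR2-null cells were the higher at 133 of these. The count is a description, since the untreated gap that picks the sites is part of the difference tested. Rpa1 at 75114517 had 40.5% ± 5.85 in untreated ADAR2-null and 45.3% ± 6.6 in untreated ADAR1-null cells, a gap of -4.83 points, against 58.4 points with interferon (difference 63.2 points, SE 6.34, adjusted p = 0.00259, edgeR). At uc012aji.1 position 6122636 the gap was -18.9 points untreated, 1.79% ± 1.24 against 20.7% ± 3.68, and -2.72 points with interferon (adjusted p = 0.00499). Adarb1 at 76786805 turned from -1.48 to 6.07 points (adjusted p = 0.0221). At these 3 sites the ADAR2-null mean was higher with interferon than without, and the ADAR1-null mean was lower.

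Some of the 18 sites with the greatest differences were not called here although their gaps widened by many points. The gap went from 2.56 points untreated to 62.6 with interferon at Nup155 and from 0.723 to 60.5 at Cds2. At Ovca2 it went from 16.8 to 71.4 points (adjusted p = 0.78, edgeR). A site without a call may therefore still have a much wider gap in points. At Cog3, Als2cl and Blcap the change in the gap was not called either. Cog3 at 76119526 had 7.93% ± 0.286 in untreated ADAR2-null and 51.0% ± 0.919 in untreated ADAR1-null cells, a gap of -43.1 points against -18.6 with interferon; the difference of 24.6 points (SE 2.16) was not called (adjusted p = 0.154, edgeR). Als2cl had gaps of -10.4 and -8.20 points, a difference of 2.17 points (SE 1.06, adjusted p = 0.807). Blcap at 157383885 had 19.3% ± 5.4 in untreated ADAR2-null cells, and its gap went from 19.1 to 18.3 points with interferon, which is -0.803 points (SE 3.88, adjusted p = 0.678).

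**Figure D4:**
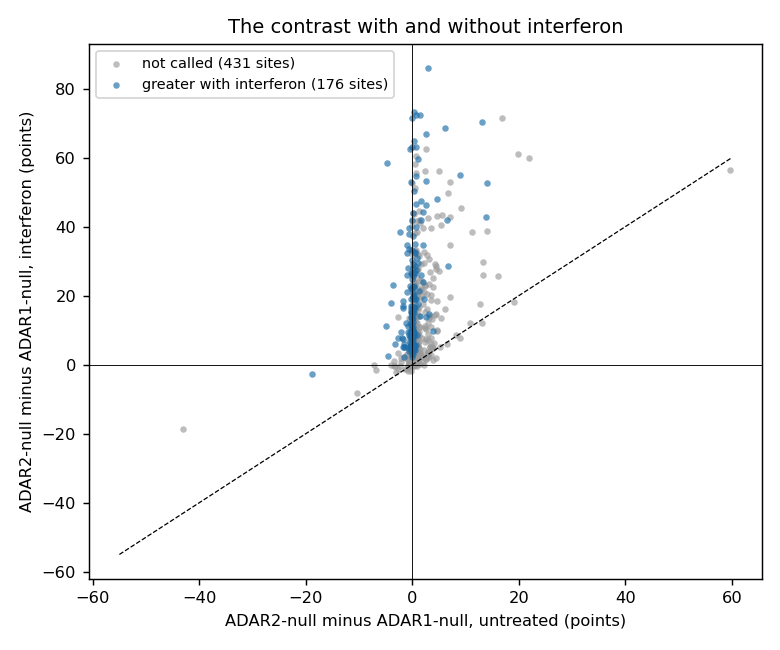
Difference in editing level between ADAR2-null and ADAR1-null cells (percentage points, means of 2 libraries) untreated (x) and with interferon (y) at 607 sites; the dashed line marks equal differences. The 176 sites called greater with interferon rise in a column near x = 0, with a median of 0.046 points untreated and 16.3 points treated, and Cog3 is the lowest point, at -43.1 and -18.6 points.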

How the data were processed

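Per the labels, total RNA was amplified by RT-PCR at up to 557 loci of 6 lines, of which 5 lines were analysed here. BWA, SAMtools and mm9 are named in the submitters' processing notes; their versions, the read filters, the choice of sites and whether positions count from 0 or 1 are not stated in the sources used here. The deposited files give, per library and site, the authors' counts of reads and of edited reads, not normalized. Duplicates from PCR cannot be removed from them, so limits cover counting error only: with 0 edited reads the limit is 3 reads over the reads of the group. The authors' deposited edited fraction per site equals edited reads over coverage to 3 decimals, and levels were computed again from the counts. Intergenic sites within 5 kb form a locus.

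Sites with 50 reads in each library compared and a mean level of 1% were tested with edgeR 4.0.16 (modelMatrixMeth, glmQLFit, glmQLFTest; R 4.3.3) in a fit of 20 libraries with a coefficient per group and no replicate block; limma 3.58.1 on log2((edited + 0.5)/(unedited + 0.5)) was an alternative. SE are from the SDs of the groups compared, which for a difference of contrasts include the untreated groups. They are in points, whereas edgeR tests log odds of editing, so a p-value beside a difference in points does not measure that difference. On simulated data the procedure made no false call and none of the wrong sign. The simulation changed 200 of 1078 sites, from a base level of at least 1% shared by both lines, with the same overdispersion (0.0215) in each group. In the data most ADAR1-null levels were under 1% and most tested sites were called, so these rates may not carry over. It recovered 6% of 4-fold changes in odds in each direction. Of 16-fold changes it recovered 52% of increases and 20% of decreases. A site not called may therefore still differ, and in the simulation 16-fold decreases in ADAR2-null cells were the more easily missed. Libraries of a line varied beyond sampling noise (chi-square per degree of freedom 7.18 over 1601 sites in ADAR2-null and 3.18 over 683 in ADAR1-null cells), so none was taken as a duplicate. The differences between replicates had a correlation of 0.046 across the lines. Most tested sites had an ADAR1-null mean under 1%, so this value cannot tell whether replicate numbers pair libraries.

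Members and gene lists were chosen with earlier results of these data known. Named sites are, per locus, the called site with the greatest difference and no overlap (18 higher, up to 12 lower, of which 1 existed), the most edited site of each listed ADAR1-type, ADAR2-type and duplex gene, the 8 genes with the highest level in the less edited of the 2 lines, the 8 with most tested sites and the 6 with the greatest difference of contrasts. Others are said to be named after their values were seen, or illustrate a neighbouring base or a gene of a list. A few sites of the lists are not reported here.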

Additional observations from a re-analysis of the deposited data

Results flagged for a closer look

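The contrast between ADAR2-null and ADAR1-null cells differed between the interferon and the untreated libraries at 176 of 607 sites by a test of the difference itself (edgeR quasi-likelihood, Benjamini-Hochberg). The genes with the greatest difference were Mmgt1 (83.0 points), Rhoa (73.0 points), 2900026A02Rik (71.6 points), Gnl3l (71.1 points), Rpa1 at 75114517 (63.2 points) and Mlh3 (63.1 points), each in the 3′ UTR and each with the greater gap after interferon. Rhoa, Gnl3l, Mlh3 and Rpa1 kept the call under the alternatives run, with adjusted p-values of up to 0.00966, 0.0487, 0.0435 and 0.0485.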

How the results depend on the processing

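The 742 calls between the treated lines (741 higher and 1 lower in ADAR2-null cells) were 642 to 781 under another coverage minimum, test, fit or level filter (642 with the minimum taken from wild-type cells), 762 with the replicate block, and 527 to 672 without 1 library. A minimum level of 5% left 371 calls, 366 of them among the 742, because 382 sites were tested. The 176 sites with a greater gap after interferon became 322 with limma, 104 with a minimum level of 5% and 89 with no minimum level (87 greater, 2 smaller), 164 with the replicate block, and 94 to 169 without 1 library; beyond the number of sites tested the cause was not tested. The difference in mean level of 1.58 points was 1.73 with a coverage minimum of 100, 11.7 over sites at 1% or more, 1.94 from summed reads, 1.46 as a mean of gene means, 2.08 over sites covered in the 20 libraries, and 1.5 to 1.67 without 1 library. No result reversed. Of 154 list and region counts under alternatives, 129 stayed within 1.5 times. Without a library, its group has 1 sample, which is assumed to vary like the other groups. Sites at 107 reads or so cannot show levels well under 1%, so ADAR1-null levels of 0 there are upper limits.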

Other observations

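Some sites called higher in ADAR2-null cells had a level unlike that of wild-type cells; they were singled out after their values were seen, and no cause was tested. Igf2, which encodes an insulin-like growth factor, had 57.5% and 54.8% at 149839178 of chromosome 7 in treated ADAR2-null cells and 10.7% and 14.2% at 149839165. Neither site had an edited read in treated ADAR1-null or wild-type cells, and untreated ADAR2-null cells had 2.45% at the first. Ifi202b, an interferon-inducible DNA-binding protein of a family of near-identical genes between which reads may be split, had 57.9% and 55.3% at a lysine-to-glutamate change (175901522 of chromosome 1) against 0.388% and 0.0925% in ADAR1-null cells. There untreated ADAR2-null cells had 59.9%, treated STAT2-null cells 56.8% and treated wild-type cells 0.191%, so the level in ADAR2-null cells was much the same without interferon. Whether the lines differ in genome sequence at this position was not tested. The Acan site had 8.23% and 5.09% in treated ADAR2-null cells and 0.476% in wild type.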
